A study of Homo sapiens with 9 samples.

Results

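The genes described here encode the proteins of the cytosolic ribosome. They were chosen by name and type alone, as protein-coding rows called RPL or RPS plus a number (with RPLP0, RPLP1, RPLP2 and RPSA) that both deposited tables list. This gave 82 of 22741 genes, of which 46 belong to the large subunit, 31 to the small subunit and 5 are L-type paralogs (RPL7L1, RPL22L1, RPL26L1, RPL36AL and RPS27L), near copies of core genes. RPL3L, a paralog of RPL3, was listed in only 1 table and was left out. The cells were WiDr, a line from a human colon tumour that carries a mutant p53. They were transfected for 24 h with 100 nM siRNA, which was LIMp27 siRNA-1, LIMp27 siRNA-2 or a control siRNA, and each group had 3 libraries. LIMp27 is a long noncoding RNA (LINC01356), and both siRNAs were designed against it. All groups come from a single cell line. The study calls the libraries of a group experimental repeats in one place and biological repeats in another. The labels do not say whether each had its own culture, so p-values measure the spread between these libraries only.

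A ribosome holds a single copy of nearly every core protein, joined to ribosomal RNA in a small subunit that reads the mRNA and a large subunit that forms the peptide bond. The mRNAs of these proteins mostly begin with a C followed by an unbroken run of pyrimidines, the 5′ terminal oligopyrimidine (TOP) tract, through which the kinase complex mTORC1 and the RNA-binding protein LARP1 control their translation and stability. L-type paralogs can stand in for their core protein or act outside the ribosome. Colon cancer cells make ribosomes at a high rate, and several ribosomal proteins, RPL5 and RPL11 among them, also bind MDM2 when they are free of the ribosome.

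Reads assigned to genes numbered 14361629 to 21524623 per library. The epithelial markers EPCAM, KRT8, KRT18, KRT20, CDH1 and VIL1 were present in every library, while the fibroblast gene COL1A1 stayed at or below 1.39 CPM (read counts scaled to library size), and PTPRC, COL1A2 and PECAM1 were not listed in both tables. LINC01356 itself had 0, 0 and 2 reads with control siRNA, 0 in each library with LIMp27 siRNA-1 and 0, 2 and 1 with LIMp27 siRNA-2. These reads are too few to check the knockdown at this depth. The study itself reports that quantitative PCR showed the knockdown in the WiDr cells used for RNA-seq. In such bulk samples, fewer cells of a type and less RNA per cell cannot be told apart, nor can less ribosomal protein mRNA and more of other mRNAs.

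RefSeq start sites (GRCh38.p14) were matched for 67 of the 82 genes. The 30 bases from 10 before to 20 after the start are shown for L-type paralogs, for most of their core genes, and for RPL31, RPL38 and RPL13A, which the results return to. Capitals mark the longest pyrimidine run counted from a C no more than 5 bases from the start. Pyrimidines before that C are neither marked nor counted.
RPL22, chr1:6199576-6199605, minus strand: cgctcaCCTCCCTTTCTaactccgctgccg
RPL22L1, chr3:170870176-170870205, minus strand: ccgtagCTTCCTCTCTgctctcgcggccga
RPL26, chr17:8383174-8383203, minus strand: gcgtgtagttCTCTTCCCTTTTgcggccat
RPL26L1, chr5:172958870-172958899, plus strand: ggcggcggccacaaaCCCgcaggcacgccg
RPL36A, chrX:101391001-101391030, plus strand: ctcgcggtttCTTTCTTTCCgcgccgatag
RPL36AL, chr14:49620607-49620636, minus strand: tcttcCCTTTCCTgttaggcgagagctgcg
RPS27, chr1:153990752-153990781, plus strand: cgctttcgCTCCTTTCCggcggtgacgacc
RPS27L, chr15:63157458-63157487, minus strand: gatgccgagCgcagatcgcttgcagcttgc
RPL7L1, chr6:42879606-42879635, plus strand: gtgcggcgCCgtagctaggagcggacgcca
RPL31, chr2:101002279-101002308, plus strand: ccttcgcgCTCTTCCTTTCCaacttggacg
RPL38, chr17:74203668-74203697, plus strand: aagtctcgttCTTTTTCgtccttttccccg
RPL13A, chr19:49487598-49487627, plus strand: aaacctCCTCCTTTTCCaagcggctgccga

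Of the 62 core genes matched, 46 (74.2%) had a run of at least 5 pyrimidines starting with C exactly at the annotated start, and 53 (85.5%) had it within 5 bases. The same was found for 5.14% and 25.2% of all 27305 RefSeq genes, and for 7.56% and 29.4% of genes above 1 CPM on average. The subunits were alike, with 28 of 38 large-subunit genes and 18 of 24 small-subunit genes holding the run at the start. Of the 5 paralogs, RPL22L1 and RPL36AL had 10 and 8 pyrimidines counted in this way, whereas RPL26L1, RPL7L1 and RPS27L had at most 3. The run of RPL36AL also extends further upstream of the counted part. A run in this window is a match of letters, and start sites were not measured here.

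Most core genes were among the most abundant mRNAs of WiDr cells. In control libraries their median was 1032 FPKM (reads scaled to gene length and library size, the only scale on which genes are compared here), 65 of 77 lay above the 99th percentile of listed genes and 41 were among the 100 highest. RPLP0, the stalk protein that carries RPLP1 and RPLP2, led with 3058 FPKM, followed by RPL4, RPS3, RPL8 and RPL7 at 2994, 2580, 2391 and 2305 FPKM. The median was 1166 FPKM for small-subunit and 978 FPKM for large-subunit genes. The paralogs were far lower than these medians, from 30.0 FPKM for RPL26L1 to 234.8 FPKM for RPL22L1, with a median of 164.3 FPKM. RPL22L1 and RPL36AL (187.0 FPKM) still lay above their own core genes RPL22 and RPL36A, while RPL7L1, RPL26L1 and RPS27L lay below theirs.

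Among the 5 lowest core genes were RPS10 at 4.99 FPKM, RPL36A at 8.36, RPL17 at 36.6 and RPL22 at 68.2. GENCODE 29 places another coding gene on the same strand over each of these 5, and over 9 members in all (RPL26, RPS15A, RPL36 and RPS13 among them). For RPS10, RPL17 and RPL36A it is the annotated readthrough gene RPS10-NUDT3, RPL17-C18orf32 or RPL36A-HNRNPH2. The 9 overlapped core genes had a median of 68.2 FPKM, and the other 68 a median of 1134 with none under 193.3 FPKM. Not all 9 were low, with RPS13 at 1321, RPL36 at 534.1, RPS15A at 201.7 and RPL26 at 105.1 FPKM. By the deposited coordinates, only RPS13 (PIK3C2A) and RPL36 (HSD11B1L) had a same-strand coding gene over them that the authors listed for both siRNAs. How the authors counted reads in shared exons is not given in the sources used here, and whether these 9 levels hold all their reads was not tested. Processed copies elsewhere in the genome are another limit. Of all 50-base stretches of a member's transcripts, 62.6% (RPS2) to 99.9% (RPL35A) occur in no other GENCODE gene, with a median of 91.6% and 10 members under 80%. Spearman's rho between this share and the control level was −0.14 over the 82 genes, a description over genes that share libraries.

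With LIMp27 siRNA-1, core ribosomal protein mRNAs were on the whole slightly lower than with control siRNA. The median core gene fell by 6.45%, a log2 fold change of −0.096, against 0.00094 over all 14347 genes tested. Of the 82 members, 38 fell at an adjusted p below 0.05, against 28.3% of all genes, and only RPL26L1 rose, against 26.5% of all genes. The remaining 43 did not pass, while 54.8% of all genes passed in either direction. Libraries of the groups did not overlap for 35 members that were lower, against 30.3% of all genes, and for 2 that were higher, against 28.8%. The falls comprised 25 of 46 large-subunit genes, 11 of 31 small-subunit genes and 2 paralogs (RPL7L1 and RPS27L). Core genes moved within a narrow band, with an SD of 0.098 between genes on the log2 scale against 0.54 for all genes, and 4 of the 38 falls reached a log2 change of 0.25.

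The count of falls depended on the scale. With total counts in place of TMM factors, 9 core genes were higher and 12 lower, the core median was −0.0024 and the median of all genes was 0.095. The core median minus the median of all genes was −0.097 on both scales. That match was set in advance, because a change of scale shifts all genes nearly alike. The fall is therefore stated only relative to other genes. This difference was −0.13 with no filter and −0.20 with the GC and length correction. With correction for GC content and length, 58 core genes fell and none rose, at a median of −0.19. Without the 9 core genes that another coding gene overlaps, 30 core genes fell at a median of −0.082. Without LIMp27 siRNA-1 replicate 2 there were 23 falls among the members, and without control siRNA replicate 1 there were 24.

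With LIMp27 siRNA-2 the core genes showed no common direction. Their median was −0.011 (all genes 0.012), and 9 members rose, against 27.7% of all 14204 genes tested, while 15 fell, against 29.0%. The other 58 did not pass, against 56.7% of all genes that passed in either direction. Libraries did not overlap for 8 members that were higher and 18 that were lower, against 29.5% and 31.6% of all genes. The control libraries are the same as in the comparison above. The rises comprised 4 large-subunit genes, 3 small-subunit genes and the paralogs RPL36AL and RPL26L1, and the falls 7, 5 and the remaining 3 paralogs. The spread between core genes was 0.15 on the log2 scale against 0.61 for all genes. Here too the scale decided the split: with total counts 23 core genes were higher and 6 lower, and with the GC and length correction 2 were higher and 41 lower at a median of −0.12. The 9 rises became 3 without control siRNA replicate 2, and 5 without either LIMp27 siRNA-2 replicate 1 or replicate 2.

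Compared directly, LIMp27 siRNA-2 gave 27 members at a higher level than LIMp27 siRNA-1, against 23.1% of 14415 genes tested, and 6 at a lower level, against 22.4%. The other 49 did not pass, and 45.4% of all genes passed in either direction. Libraries did not overlap for 24 members that were higher and 7 that were lower, against 24.8% and 27.4% of all genes. The core median was 0.094 (all genes 0.012), with 18 large-subunit and 8 small-subunit genes higher, and RPL26, RPL22 and RPL31 the only core genes lower. The lower members were otherwise paralogs (RPL7L1, RPL26L1 and RPL22L1). This direction was the least dependent on the scale, with core counts of 20 higher and 4 lower by total counts and 30 and 5 after the GC and length correction. The number higher was 10 without LIMp27 siRNA-1 replicate 2 and 13 without LIMp27 siRNA-1 replicate 3. By library, the median core deviation from the control mean in log2 CPM was −0.10 ± 0.046 (SD, n = 3) with LIMp27 siRNA-1. It was −0.019 ± 0.034 with LIMp27 siRNA-2, and the 2 groups overlapped (exact two-sided permutation p = 0.2).

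**Figure D1:**
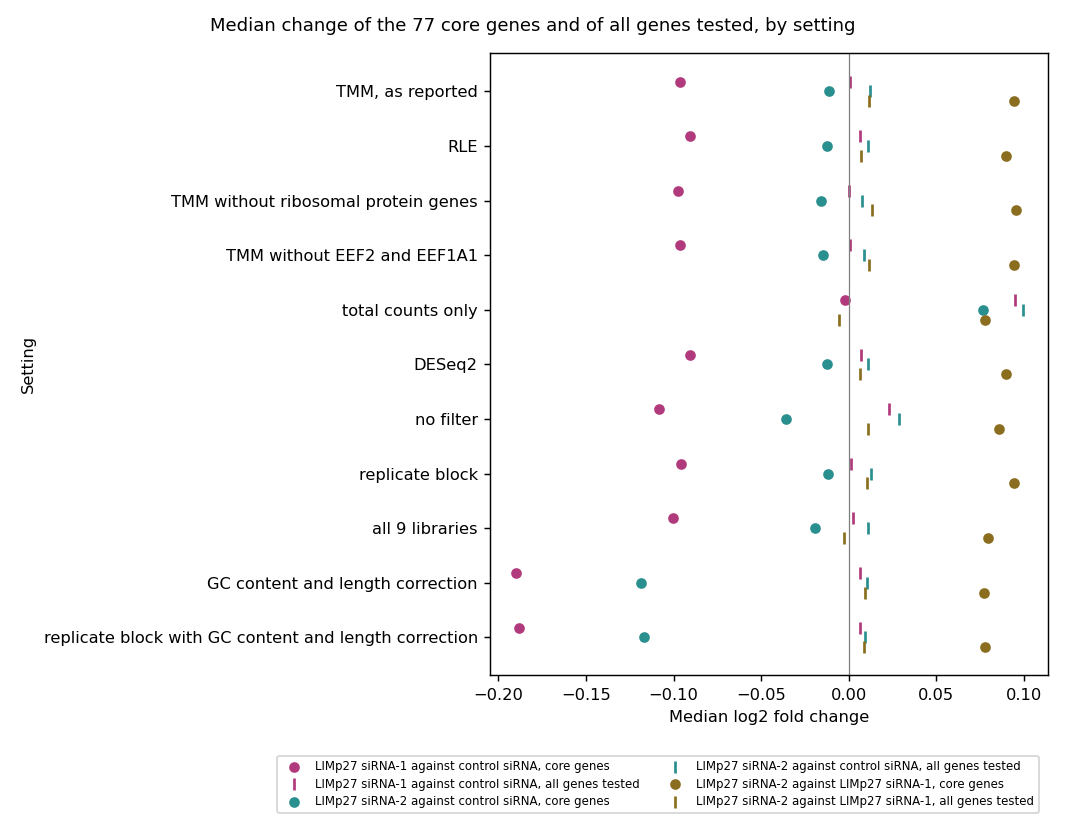
Median log2 fold change of the 77 core genes (points) and of all genes tested (ticks) under each scaling or fit, for the 3 comparisons. Points for LIMp27 siRNA-1 lie left of their ticks throughout, with the total-count points and ticks of both siRNAs shifted to the right, and both siRNAs move to −0.19 and −0.12 with the GC and length correction.

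The share of all counted reads that fell in the 82 genes was 7.82%, 7.50% and 7.61% with control siRNA, 7.90%, 7.39% and 7.59% with LIMp27 siRNA-1, and 8.05%, 8.05% and 7.85% with LIMp27 siRNA-2. The LIMp27 siRNA-2 libraries all lay above the control libraries, and the LIMp27 siRNA-1 libraries lay on both sides of them. The difference was 0.34 percentage points for LIMp27 siRNA-2 and −0.018 for LIMp27 siRNA-1 (exact two-sided permutation p = 0.1 and 0.9, n = 3 each). With 3 libraries against 3 no such test can give less than 0.1. EEF2 and EEF1A1, the abundant elongation factors, held 0.0218% and 0.571% of reads with LIMp27 siRNA-1 against 0.208% and 0.970% with control siRNA, and their part in the share was not tested.

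The balance of the subunits moved little. The log2 ratio of summed large-subunit to summed small-subunit reads, which needs no scaling, was 0.76 ± 0.013 (SD, n = 3) with control siRNA, 0.73 ± 0.013 with LIMp27 siRNA-1 and 0.74 ± 0.0054 in LIMp27 siRNA-2 libraries. Both siRNA groups lay below the control group without overlap, by 0.033 and 0.023 (exact permutation p = 0.1 each, the smallest possible). The 2 siRNA groups overlapped (exact permutation p = 0.4). By the mean log level of each subunit's genes, in which each gene counts equally, the 3 groups did not overlap, at 0.17 ± 0.0074, 0.15 ± 0.0045 and 0.16 ± 0.0081 (exact permutation p = 0.1 in each comparison).

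Among large-subunit genes, RPL7 had the smallest p with LIMp27 siRNA-1. RPL7 stood at 2094, 2080 and 2077 CPM with control siRNA, 1671, 1649 and 1654 with LIMp27 siRNA-1 and 1666, 1624 and 1815 with LIMp27 siRNA-2. All 6 siRNA libraries lay below all control libraries. The log2 fold change was −0.33 ± 0.040 (SE, adjusted p = 5.38e-08), a fall of 20.3%, with LIMp27 siRNA-1 and −0.28 ± 0.048 (adjusted p = 1.3e-05) with LIMp27 siRNA-2, and both calls held under every alternative fit. Of the stretches of RPL7 transcripts, 23.1% also occur in pseudogenes.

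RPL5, a carrier of 5S ribosomal RNA that can bind MDM2, stood at 1596, 1548 and 1567 CPM with control siRNA, 1372, 1328 and 1303 with LIMp27 siRNA-1 and 1463, 1401 and 1371 with LIMp27 siRNA-2. The control libraries were the highest of all, and the log2 fold changes were −0.23 ± 0.041 (adjusted p = 2.34e-05) and −0.14 ± 0.046 (adjusted p = 0.00965), the second of which was lost with total counts and without replicate 1 of both groups (adjusted p = 0.066). RPL11, its partner on 5S ribosomal RNA, did not pass with LIMp27 siRNA-1 (0.072, adjusted p = 0.195, but past the threshold with total counts) and rose by 0.16 ± 0.051 with LIMp27 siRNA-2 (adjusted p = 0.0103). The rise of RPL11 was lost without control siRNA replicate 2 (adjusted p = 0.15) and with the GC and length correction (adjusted p = 0.25).

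RPL17 and RPL21, proteins of the large subunit, and RPL4, which lines the peptide exit tunnel, fell with LIMp27 siRNA-1 by 0.32, 0.26 and 0.20 on the log2 scale. RPL21 went from 1000 to 1069 CPM in control libraries to 848 to 899 with LIMp27 siRNA-1 and 903 to 1073 with LIMp27 siRNA-2. Its control and LIMp27 siRNA-2 libraries overlapped. RPL17 is 1 of the overlapped genes, at 19.2 to 21.3 CPM with LIMp27 siRNA-1 against 23.8 to 26.8 in control libraries. RPL3, at the peptidyl transferase centre, and RPL10A fell with both siRNAs, RPL3 by 0.15 and 0.16 and RPL10A by 0.15 and 0.21. With total counts neither fall passed for RPL3, and for RPL10A the fall with LIMp27 siRNA-1 was lost, while the one with LIMp27 siRNA-2 was lost without replicate 1 of both groups (adjusted p = 0.069).

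RPL37 and RPL38, small proteins of the large subunit, moved in opposite directions with the siRNAs. RPL38 (chr17:74203582-74210655, plus strand) stood at 337, 336 and 320 CPM with control siRNA, 297, 276 and 284 with LIMp27 siRNA-1 and 359, 391 and 379 with LIMp27 siRNA-2. The groups were fully separated, with control siRNA in between. The log2 fold change was −0.21 ± 0.044 (adjusted p = 0.000178) with LIMp27 siRNA-1 and 0.20 ± 0.051 (adjusted p = 0.0016) with LIMp27 siRNA-2, and the direct difference was 0.42 ± 0.051 (adjusted p = 5.53e-08). RPL37 stood at 858, 806 and 788 CPM, 756, 673 and 657 CPM, and 854, 912 and 929 CPM in the same order of groups. Its lowest LIMp27 siRNA-2 library lay within the control range, and its direct difference was 0.39 ± 0.054 (adjusted p = 5.26e-07). The direct differences of both genes passed under every alternative but the rises against control did not: that of RPL38 dropped to 0.044 (adjusted p = 0.40) with the GC and length correction, and that of RPL37 was lost when control siRNA replicate 2, control siRNA replicate 3 or LIMp27 siRNA-2 replicate 2 was left out (adjusted p = 0.0715, 0.0612 and 0.0537).

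RPS6 was the small-subunit gene that moved in opposite directions. It encodes the protein phosphorylated by the S6 kinases downstream of mTORC1. RPS6 stood at 1303, 1309 and 1350 CPM with control siRNA, 1252, 1196 and 1191 with LIMp27 siRNA-1 and 1498, 1403 and 1395 with LIMp27 siRNA-2. No groups overlapped, at log2 fold changes of −0.12 ± 0.042 (adjusted p = 0.0171) and 0.13 ± 0.047 (adjusted p = 0.021), and a direct difference of 0.26 ± 0.047 (adjusted p = 3.6e-05). Both changes against control were lost when single libraries were left out, the first without control siRNA replicate 3 or LIMp27 siRNA-1 replicate 2 or 3 and with total counts, the second without control siRNA replicate 1 or 2 or LIMp27 siRNA-2 replicate 1 and with no filter on low counts. The direct difference was kept throughout.

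RPL12, of the stalk base, and RPL32 were also among the clearest differences between the siRNAs, at 0.21 ± 0.050 (adjusted p = 0.000775) and 0.19 ± 0.047 (adjusted p = 0.00155). RPL12 was at 936, 868 and 851 CPM with LIMp27 siRNA-1 and at 1061, 980 and 994 CPM with LIMp27 siRNA-2, without overlap. Against control siRNA, RPL12 fell with LIMp27 siRNA-1 (−0.13, adjusted p = 0.0146), and RPL32 did not pass with either (adjusted p = 0.0641 and 0.137). The fall of RPL12 was lost with total counts (adjusted p = 0.495) and without control siRNA replicate 1, LIMp27 siRNA-1 replicate 2 or LIMp27 siRNA-1 replicate 3 (adjusted p = 0.074, 0.0772 and 0.101). For LIMp27 siRNA-1, RPL32 passed with the GC and length correction (−0.14, adjusted p = 0.00144), with no filter and without control siRNA replicate 3 or LIMp27 siRNA-1 replicate 1. For LIMp27 siRNA-2, both passed upward with total counts (0.16 and 0.17), and the direct difference of RPL32 was lost without replicate 2 of both groups (adjusted p = 0.0534).

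Among core genes that passed, RPL26, RPL22 and RPL31 fell most with LIMp27 siRNA-2. RPL26, a large-subunit protein that also binds the p53 mRNA, stood at 70.8, 62.5 and 58.7 CPM with control siRNA, 63.5, 51.9 and 49.8 with LIMp27 siRNA-1 and 41.1, 44.6 and 38.0 with LIMp27 siRNA-2. The LIMp27 siRNA-2 libraries were the lowest of all, a fall of 35.0% (log2 fold change −0.62 ± 0.075, adjusted p = 3.97e-08), while LIMp27 siRNA-1 overlapped with control siRNA (−0.22 ± 0.074, adjusted p = 0.0131). The latter was lost with total counts, in DESeq2 (adjusted p = 0.22) and without control siRNA replicate 1, LIMp27 siRNA-1 replicate 2 or LIMp27 siRNA-1 replicate 3 (adjusted p = 0.17, 0.093 and 0.12). RPL22, which binds viral and cellular small RNAs besides the ribosome, stood at 77.8, 75.8 and 78.3 CPM, then 66.5, 71.6 and 65.6 CPM, then 52.5, 55.5 and 53.3 CPM. Its 3 groups did not overlap, at −0.19 ± 0.052 (adjusted p = 0.00347, lost with total counts) and −0.51 ± 0.062 (adjusted p = 3.94e-08). RPL26 and RPL22 are among the overlapped genes with few counted reads, and the part of the overlapping loci AC135178.2 and AL031847.2 in these falls was not tested.

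RPL31, at the exit of the peptide tunnel, has no coding gene over it on its strand and 98.1% of its stretches are its own. RPL31 (chr2:101001715-101024032, plus strand) stood at 772, 759 and 748 CPM with control siRNA, 801, 719 and 702 with LIMp27 siRNA-1 and 597, 586 and 564 with LIMp27 siRNA-2. LIMp27 siRNA-1 libraries lay on both sides of the control range and LIMp27 siRNA-2 libraries well below it. The log2 fold change was −0.37 ± 0.047 (adjusted p = 1.05e-07) with LIMp27 siRNA-2 and −0.033 ± 0.047 (adjusted p = 0.57) with LIMp27 siRNA-1 (−0.10, adjusted p = 0.0469, without its replicate 1), and the direct difference was −0.33 ± 0.052 (adjusted p = 4.84e-06). The falls of all 3 genes with LIMp27 siRNA-2 were kept under every alternative fit.

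RPS7, a small-subunit protein that binds MDM2, fell by 0.26 ± 0.045 with LIMp27 siRNA-1 (adjusted p = 1.13e-05), from 1062, 1058 and 1046 CPM to 933, 838 and 860 CPM. With LIMp27 siRNA-2 RPS7 was at 1063, 965 and 961 CPM and did not pass (−0.071, adjusted p = 0.215). RPS10 had 57 to 77 reads in control libraries, and its −0.38 ± 0.19 and −0.39 ± 0.21 did not pass (adjusted p = 0.0925 and 0.104). Both passed with the GC and length correction (−0.51 and −0.55, adjusted p = 0.0213 and 0.0208), and the second passed without LIMp27 siRNA-2 replicate 3 (adjusted p = 0.0293). RPL39, a very small protein of the large subunit, rose by 0.12 ± 0.050 with LIMp27 siRNA-2 (adjusted p = 0.0433), and most alternatives lost this call.

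RPL13A is the gene to which the study scaled its quantitative PCR. It stood at 2338, 2320 and 2129 CPM with control siRNA, 2151, 2104 and 2206 with LIMp27 siRNA-1 and 2306, 2417 and 2433 with LIMp27 siRNA-2. Neither comparison with control siRNA passed (−0.068 ± 0.043 and 0.088 ± 0.048, adjusted p = 0.184 and 0.116). The value for LIMp27 siRNA-1 passed with the GC and length correction (−0.19, adjusted p = 3.13e-05) and without control siRNA replicate 3 (−0.11, adjusted p = 0.0354), and that for LIMp27 siRNA-2 with total counts (0.18, adjusted p = 0.00223). In the direct comparison LIMp27 siRNA-2 exceeded LIMp27 siRNA-1 by 0.17 ± 0.046 (adjusted p = 0.00347), a call lost without replicate 2 of both groups (adjusted p = 0.131).

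The 5 L-type paralogs did not move together. RPL7L1, a nuclear relative of RPL7 that acts in ribosome assembly, stood at 288, 281 and 276 CPM with control siRNA, 238, 250 and 239 with LIMp27 siRNA-1 and 176, 173 and 179 with LIMp27 siRNA-2. The groups were fully separated in that order. The log2 fold change was −0.21 ± 0.042 (adjusted p = 9.3e-05) and −0.66 ± 0.051 (adjusted p = 4.19e-12), a fall of 36.9% with LIMp27 siRNA-2, and the direct difference was −0.44 ± 0.050 (adjusted p = 1.18e-08).

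RPL26L1, a near copy of RPL26, rose against the shared control libraries in each comparison. RPL26L1 stood at 19.1, 19.1 and 17.7 CPM with control siRNA, 28.7, 30.4 and 27.2 with LIMp27 siRNA-1 and 24.0, 21.1 and 22.0 with LIMp27 siRNA-2. The groups did not overlap, with LIMp27 siRNA-1 the highest and control siRNA the lowest. The log2 fold change was 0.63 ± 0.077 (adjusted p = 5.98e-08), a rise of 54.6%, with LIMp27 siRNA-1 and 0.28 ± 0.091 (adjusted p = 0.010) with LIMp27 siRNA-2, the latter lost with the GC and length correction (0.11, adjusted p = 0.27) and without LIMp27 siRNA-2 replicate 1 (0.22, adjusted p = 0.074). Of its stretches, 31.9% also occur in pseudogenes, and none in RPL26 or another coding gene.

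RPL36AL, a copy of RPL36A, had no overlap between LIMp27 siRNA-2 (177, 164 and 161 CPM) and control siRNA (151, 136 and 150 CPM). It rose by 0.21 ± 0.058 with LIMp27 siRNA-2 (adjusted p = 0.00279) and did not pass with LIMp27 siRNA-1 (146, 126 and 139 CPM, −0.089, adjusted p = 0.178). Without control siRNA replicate 2 the rise was lost (0.15, adjusted p = 0.055) and the value with LIMp27 siRNA-1 passed (−0.15, adjusted p = 0.0387), as it did without LIMp27 siRNA-1 replicate 1. RPL22L1 stood at 224, 201 and 227 CPM with control siRNA, 249, 217 and 226 with LIMp27 siRNA-1 and 206, 181 and 186 with LIMp27 siRNA-2, whose first library overlapped with the control range. It fell by 0.18 ± 0.059 with LIMp27 siRNA-2 (adjusted p = 0.0119) and by 0.25 ± 0.058 from LIMp27 siRNA-1 to LIMp27 siRNA-2 (adjusted p = 0.000561). The former was lost with total counts, with the GC and length correction and without control siRNA replicate 1, control siRNA replicate 3 or LIMp27 siRNA-2 replicate 2 (adjusted p = 0.0649, 0.0583 and 0.0555).

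RPS27L, a p53 target in other cells, fell by 0.23 ± 0.060 (adjusted p = 0.00197) and 0.17 ± 0.066 (adjusted p = 0.0295), from 56.9, 60.9 and 62.1 CPM to 54.9, 49.6 and 49.1 CPM and to 55.7, 50.1 and 52.7 CPM. LIMp27 siRNA groups overlapped each other and neither overlapped with control siRNA. Both falls of RPS27L were lost with total counts and with the GC and length correction, and the second also without control siRNA replicate 2 or 3 or LIMp27 siRNA-2 replicate 2.

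The ratio of a paralog to its core gene within a library does not depend on library scaling, and 5 pairs had enough reads. The log2 ratio of RPL26L1 to RPL26 was −1.78 ± 0.097 (SD, n = 3) with control siRNA, −0.93 ± 0.19 with LIMp27 siRNA-1 and −0.88 ± 0.17 in LIMp27 siRNA-2 libraries, a shift of 0.85 and 0.89 toward the paralog. That of RPL22L1 to RPL22 was 1.49 ± 0.071, 1.76 ± 0.15 and 1.82 ± 0.14 in the same order, shifts of 0.27 and 0.34. In both pairs each siRNA library lay above each control library, while the siRNA groups overlapped (direct differences 0.047 and 0.062). The core genes of both pairs are overlapped genes, so their own part of the reads, and hence the ratio itself, is uncertain.

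The log2 ratio of RPL7L1 to RPL7 went from −2.89 ± 0.024 to −2.77 ± 0.047 with LIMp27 siRNA-1 and to −3.27 ± 0.062 with LIMp27 siRNA-2. The 3 groups were fully separated, with the siRNA groups on opposite sides of control siRNA. The ratio of RPS27L to RPS27 went from −3.50 ± 0.039 to −3.66 ± 0.057 and −3.69 ± 0.14, without overlap with control siRNA. The direction of this pair turned with the GC and length correction, where RPS27L stood at −0.11 (LIMp27 siRNA-1) and −0.030 (LIMp27 siRNA-2) and RPS27 at −0.22 and −0.18, in each case with the core gene the lower of the pair. That of RPL36AL to RPL36A overlapped in every comparison. Each of the 4 pairs without overlap had an exact permutation p of 0.1, the smallest possible, in each comparison with control siRNA (0.125 adjusted over the 5 pairs), so none can pass 0.05 at this number of libraries.

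**Figure D2:**
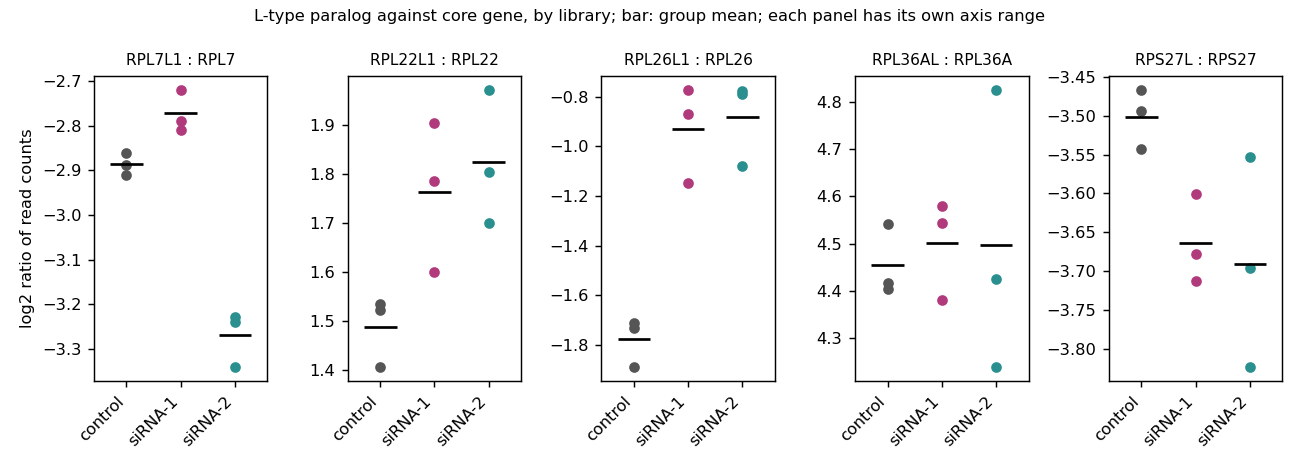
Log2 ratio of read counts of each L-type paralog to its core gene in each of the 9 libraries, with bars at group means and an axis range of its own in each panel. RPL26L1 to RPL26 and RPL22L1 to RPL22 are higher in all siRNA libraries, RPL7L1 to RPL7 rises with LIMp27 siRNA-1 and falls with LIMp27 siRNA-2, and RPL36AL to RPL36A overlaps.

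FAU, which encodes a ribosomal protein fused to a ubiquitin-like protein, and RACK1, a scaffold on the small subunit, belong to the ribosome but not to the name rule. FAU did not pass with either siRNA, with log2 fold changes of 0.0021 (LIMp27 siRNA-1, adjusted p = 0.975) and 0.0020 (LIMp27 siRNA-2, adjusted p = 0.977). RACK1 fell by 0.098 ± 0.041 (adjusted p = 0.0446) and 0.12 ± 0.046 (adjusted p = 0.0284), and neither fall was kept with total counts. The first was also lost with RLE factors (adjusted p = 0.0572) and without control siRNA replicate 1 or 3 or LIMp27 siRNA-1 replicate 2 or 3, and the second without control siRNA replicate 1 or 3 (adjusted p = 0.0962 and 0.0668).

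Of 10 ribosomal protein genes known to be mutated in Diamond-Blackfan anaemia, a failure of red cell production, 7 fell and none rose with LIMp27 siRNA-1 (of all genes tested, 28.3% were lower and 26.5% higher), and 3 fell and 1 rose with LIMp27 siRNA-2 (29.0% and 27.7% of all genes). Their medians were −0.19 and −0.052. RPS19, the gene most often affected, fell by 0.15 ± 0.043 with LIMp27 siRNA-1 (adjusted p = 0.00353) and did not pass with LIMp27 siRNA-2 (−0.034, adjusted p = 0.625). The fall was lost with total counts (−0.058, adjusted p = 0.255) and without replicate 2 of both groups (adjusted p = 0.0529), and the value for LIMp27 siRNA-2 passed with the GC and length correction (−0.19, adjusted p = 0.000436). RPS24 fell by 0.15 ± 0.051 with LIMp27 siRNA-1 (adjusted p = 0.012), whose libraries overlapped with control siRNA, and stood at −0.0084 with LIMp27 siRNA-2 (adjusted p = 0.903). The fall of RPS24 was lost with total counts (adjusted p = 0.329) and without control siRNA replicate 3, LIMp27 siRNA-1 replicate 2 or LIMp27 siRNA-1 replicate 3 (adjusted p = 0.0683, 0.102 and 0.0607).

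Other TOP mRNAs varied more than core ribosomal protein genes, with an SD between genes of 0.99 (LIMp27 siRNA-1) and 0.32 (LIMp27 siRNA-2). The SD was 0.098 and 0.15 for core genes and 0.54 and 0.61 for all genes. With LIMp27 siRNA-1 the quartiles of the list were −0.33 and −0.079, and EEF2 and HNRNPA1 lay furthest out. Of 15 listed, 10 fell and 1 rose with LIMp27 siRNA-1 (median −0.22), beside 28.3% lower and 26.5% higher among all genes, and 5 fell and 2 rose with LIMp27 siRNA-2 (median −0.059), beside 29.0% and 27.7%. EEF2, the translocation factor, fell by 3.35 ± 0.058 on the log2 scale with LIMp27 siRNA-1 (adjusted p = 2.4e-27), from 2072 to 2243 CPM to 189 to 232 CPM, and by 0.30 ± 0.048 with LIMp27 siRNA-2. HNRNPA1, an RNA-binding protein, fell by 2.19 ± 0.045 with LIMp27 siRNA-1 (adjusted p = 1.12e-25) and rose by 0.22 ± 0.046 with LIMp27 siRNA-2. EEF1A1, which brings aminoacyl-tRNA to the ribosome, had log2 fold changes of −0.86 ± 0.040 and −0.25 ± 0.046. EIF3E and EIF3F, subunits of an initiation factor, stood at −0.23 and −0.81, and at 0.54 and 0.71, all past the threshold. Among core ribosomal protein genes that passed, the lowest value with LIMp27 siRNA-1 was the −0.33 of RPL7. Within the core genes, the 53 with a pyrimidine run near the start had a median of −0.095 with LIMp27 siRNA-1 and the 9 without a median of −0.055, and −0.0096 and −0.03 with LIMp27 siRNA-2.

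Among 13 regulators of TOP mRNAs, 6 fell and 1 rose with LIMp27 siRNA-1 (28.3% and 26.5% of all genes), and 6 fell and 3 rose with LIMp27 siRNA-2 (29.0% and 27.7%). LARP1, which binds the cap and tract of TOP mRNAs, stood at 318, 333 and 307 CPM with control siRNA, 220, 252 and 239 with LIMp27 siRNA-1 and 242, 237 and 248 with LIMp27 siRNA-2. It fell by 0.43 ± 0.046 (adjusted p = 5.47e-09) and 0.38 ± 0.051 (adjusted p = 1.95e-07). RHEB, the activator of mTORC1, fell with log2 fold changes of −0.22 ± 0.043 and −1.27 ± 0.055, and RPS6KB1, an S6 kinase, with −0.57 ± 0.054 and −1.24 ± 0.065. EIF4EBP2, a repressor of cap-dependent translation, fell at −0.86 ± 0.051 and −0.77 ± 0.057, and AKT1S1, an inhibitory mTORC1 subunit, rose by 0.59 ± 0.049 and 0.51 ± 0.059. The adjusted p of these changes was at most 8.5e-05. MTOR and RPS6KB2 fell with LIMp27 siRNA-1 (−0.29 and −0.15, adjusted p = 0.000126 and 0.0156). Both rose with LIMp27 siRNA-2 (0.19 each, adjusted p = 0.0135 and 0.00521).

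Of 9 ribosomal protein chaperones or assembly factors, 5 fell and 1 rose with LIMp27 siRNA-1 (28.3% and 26.5% of all genes). With LIMp27 siRNA-2, 3 fell and 2 rose (29.0% and 27.7%). TSR2, the carrier of RPS26, rose by 0.55 with both (SE 0.053 and 0.062, adjusted p = 6.72e-10 and 1.18e-08), while RPS26 itself did not pass with either siRNA. RRS1, which loads the RPL5 and RPL11 particle, fell by 0.54 ± 0.053 and 0.78 ± 0.070, and BCCIP, the chaperone of RPL23, by 0.35 ± 0.049 and 0.56 ± 0.055. HEATR3, which imports RPL5, fell by 0.43 ± 0.075 with LIMp27 siRNA-1 and did not pass with LIMp27 siRNA-2 (−0.17, adjusted p = 0.0721, or 0.0138 with the GC and length correction). NOP53, another factor of the RPL5 and RPL11 particle, rose by 0.27 with LIMp27 siRNA-2 and did not pass with LIMp27 siRNA-1.

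Rows for 216 ribosomal protein pseudogenes were also listed, most with hardly any reads (a median of 6.5 over the 3 control libraries). They held 0.0566% of reads with control siRNA, 0.0585% with LIMp27 siRNA-1 and 0.0678% in LIMp27 siRNA-2 libraries, against 7.64%, 7.62% and 7.98% for the 82 genes. Genes and pseudogenes together held 7.70%, 7.68% and 8.05%. Of 68 pseudogenes tested with LIMp27 siRNA-2, 18 were higher, against 27.7% of all genes, and 2 were lower, against 29.0%, and of 66 tested with LIMp27 siRNA-1, 3 were higher and 2 lower (26.5% and 28.3% of all genes).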

How the data were processed

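RNA-seq of WiDr cells came from strand-specific libraries per the labels. The submitters' processing notes name CASAVA and the build GRCh38 (hg38). The aligner, counting program and annotation are not given in the sources used here. The authors deposited raw read counts per gene and library, without normalization, in 1 table per LIMp27 siRNA, with the same control columns in both, and FPKM values, which the authors scaled for gene length and sequencing depth. Both were used. The authors' normalized counts, fold changes and p-values were not used. Total counts were 14361629 to 21524623 per library.

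Each pair of groups (6 libraries) was fitted over all genes with edgeR 4.0.16 in R 4.3.3 (TMM, filterByExpr with a minimum count of 10, quasi-likelihood test), with Benjamini-Hochberg adjustment over all genes tested and a threshold of 0.05. SE was taken as the size of the log2 fold change over the root of the F statistic. CPM values are TMM-scaled over the 9 libraries. Ratios, shares and core medians by library were compared by exact two-sided permutation tests (scipy 1.17.1). Fits were also run on counts simulated from their own dispersions with few changed genes, which cannot show whether scaling or error rates hold here. Alternatives were RLE factors, total counts, TMM without ribosomal protein genes, no filter, DESeq2 1.42.0, a replicate block, 1 fit of 9 libraries, a GC and length correction (splines, 5 degrees of freedom), a log2 change of 0.25 and leaving out libraries, and, chosen after seeing the data, TMM without EEF2 and EEF1A1.

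Genes named are L-type paralogs with their core genes, RPL13A, FAU, RACK1, the 5 highest and 5 lowest core genes, per control comparison the 6 largest called rises and falls without overlap, the 8 lowest adjusted p between the siRNAs, members called in opposite directions and up to 4 called genes of each list. Genes named for locus overlap or unique sequence, and RPS26, MTOR and RPS6KB2, were chosen after their values were seen. Some genes that the rule names are not reported here. The members, lists and rules were chosen with earlier results of these data known. Groups come from the labels, which give no batch.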

Additional observations from a re-analysis of the deposited data

How the results depend on the processing

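With total counts, 11 members were higher and 13 lower with LIMp27 siRNA-1 (medians −0.0019 for all members, −0.025 for the large and 0.025 for the small subunit), and 25 and 7 with LIMp27 siRNA-2 (medians 0.075, 0.074 and 0.079). With the GC and length correction there were 2 higher and 59 lower with LIMp27 siRNA-1 (medians −0.18, −0.19 and −0.17) and 3 and 42 with LIMp27 siRNA-2 (medians −0.11, −0.12 and −0.11). The correction together with the replicate block gave 2 and 60 (medians −0.18, −0.19 and −0.17) and 4 and 46 (medians −0.11, −0.12 and −0.11). With a log2 change of at least 0.25, 4 members were lower with LIMp27 siRNA-1, 1 higher and 6 lower with LIMp27 siRNA-2, and 4 higher in the direct comparison. Leaving out replicates gave 1 to 2 higher and 23 to 46 lower with LIMp27 siRNA-1, 2 to 10 higher with LIMp27 siRNA-2, and 8 to 35 higher in the direct comparison, and medians of −0.15 to −0.076 for the large subunit with LIMp27 siRNA-1 and 0.050 to 0.11 for the small subunit in the direct comparison. The lowest counts came without replicate 2 of both groups (23 lower, 2 higher and 8 higher), and without LIMp27 siRNA-1 replicate 2 alone there were 23 lower and, in the direct comparison, 10 higher. The GC and length correction turned FAU to −0.16 (−0.17 with the block) with LIMp27 siRNA-1 and −0.17 in the LIMp27 siRNA-2 comparison and with LIMp27 siRNA-2 RPS27 to −0.18 (−0.19 with the block). The causes were not tested. RLE factors, TMM without ribosomal protein genes or without EEF2 and EEF1A1, DESeq2, no filter and 1 fit of 9 libraries kept every count of members within 1.5 times, while with no filter the core genes higher with LIMp27 siRNA-2 went from 7 to 4. Of the members named, the calls of 10 of 21 with LIMp27 siRNA-1, 5 of 17 with LIMp27 siRNA-2 and 12 of 18 in the direct comparison were kept under all alternatives apart from the fold threshold.

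Deviations of same-numbered replicates from their group means had correlations of −0.20 to 0.20. With 3 libraries per group and no comparison with other pairings, these cannot decide whether the numbers pair the libraries. As a replicate block the numbers gave core counts of 0 higher and 37 lower, 7 and 16, and 32 and 4. Without the block the counts were 0 and 36, 7 and 12, and 26 and 3. Depth limits RPS10 and RPL36A, with 57 to 125 reads per control library, and exact tests of 3 against 3 cannot give less than 0.1.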
